A study of Mus musculus with 16 samples.

Results

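The regulators of multiciliogenesis described here are 10 genes chosen by name from general knowledge of the multiciliated cell: the transcription factors and cofactors Foxj1, Myb, Mcidas, Gmnc, Rfx2, Rfx3 and Trp73, and the centriole amplification genes Ccno, Deup1 and Ccdc78. The array carried probe sets annotated to the symbol alone for 7 of the 10 (Foxj1, Myb, Rfx2, Rfx3, Trp73, Ccno and Deup1), 14 of 45101 probe sets in all. Mcidas, Gmnc and Ccdc78 were not analysed here. RNA came from airway epithelial cells of C57BL/6 mice grown at an air-liquid interface, in which the apical side is exposed to air and ciliated, secretory and basal cells form. The 16 cultures made 4 groups of 4, with 1 array each: wild-type uninjured, wild-type scratched, Mmp7-/- (Mmp7-null) uninjured and Mmp7-null scratched. Mmp7 encodes matrilysin, a secreted metalloproteinase of epithelia. Scratched cultures received 3 parallel scratches, and all cultures, control or scratched, were kept without serum for 24 hours before harvest. The labels give neither the animals' age, nor how the Mmp7 allele was made, nor the time from scratching to harvest. They also do not say which cultures share an animal, so p-values measure only the spread between cultures. Each level is an RNA level of a whole culture, in which fewer cells of a type and less RNA per cell cannot be told apart.

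A multiciliated cell leaves the cell cycle, makes many centrioles at once and turns each into the basal body of a motile cilium. In the usual order of the pathway, release from Notch signalling lets GMNC and then multicilin (MCIDAS) act with E2F4 or E2F5 and DP1. They switch on Myb, Ccno, Deup1, Trp73 and Foxj1, and FOXJ1 and the RFX factors then drive the genes of the axoneme, the microtubule core of the cilium. DEUP1 builds the deuterosome on which most new centrioles form, and cyclin O is needed for that amplification. GMNC, multicilin and geminin are related coiled-coil proteins, and geminin antagonises the other two.

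The promoters of 3 measured members are shown because they contain GTTGCC or its reverse complement GGCAAC, the half-site letters bound by RFX factors, which are members themselves. Each is the 250 bases before a RefSeq start site (build GRCm38.p6), written 5′ to 3′ on the gene's strand, with the half-site in capitals.
Ccno: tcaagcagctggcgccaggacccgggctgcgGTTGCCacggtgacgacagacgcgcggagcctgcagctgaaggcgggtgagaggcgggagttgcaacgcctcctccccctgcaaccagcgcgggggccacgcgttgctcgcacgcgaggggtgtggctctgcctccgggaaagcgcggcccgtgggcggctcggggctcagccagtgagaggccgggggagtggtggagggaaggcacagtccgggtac
Deup1: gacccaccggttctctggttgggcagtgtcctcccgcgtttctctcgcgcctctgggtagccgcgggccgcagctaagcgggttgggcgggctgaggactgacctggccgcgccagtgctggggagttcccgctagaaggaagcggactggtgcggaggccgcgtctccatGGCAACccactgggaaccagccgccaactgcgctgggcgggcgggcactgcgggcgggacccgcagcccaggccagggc
Rfx2: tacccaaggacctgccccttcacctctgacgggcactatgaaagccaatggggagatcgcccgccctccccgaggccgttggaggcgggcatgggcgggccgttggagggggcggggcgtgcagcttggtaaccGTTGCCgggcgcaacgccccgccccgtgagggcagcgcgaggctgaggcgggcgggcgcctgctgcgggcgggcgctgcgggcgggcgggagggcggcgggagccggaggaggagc
The Ccno stretch is chr13:112987552-112987801 (+ strand), and 213 bases separate the half-site from the start site. For Deup1 the stretch is chr9:15627847-15628096 (- strand) with 73 bases between them, and for Rfx2 chr17:56831009-56831258 (- strand) with 110. RefSeq promoters were found for 9 of the 10 members, 12 in all, and 5 of the 12 held the half-site, the others being those of Mcidas and Ccdc78. Over 32851 mouse promoters of the same length, 10.4% held it on either strand. The Deup1 gene has another start site, whose promoter lacks these letters. The motif GTAAACA of forkhead factors was in none of the 12 and in 3.17% of all promoters. TTCCCGCC, an E2F motif, occurred in a Trp73 promoter and in 1.86% of all promoters. A letter match is a description of the window, and binding was not measured.

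Signal was given as log2 intensity, so a difference of 1 is a doubling. Control transcripts that were absent from an array gave a background, whose 95th percentile was 2.97. The means of 9 of the 14 member probe sets lay above it. Mmp7 had 1 probe set, at 2.13 to 2.59 on all 16 arrays and so below the background, and it therefore does not check the genotype labels. The median linear intensity was between 9.36 and 10.2 on every array. Spiked-in control transcripts divided the arrays into 3 sets that track genotype: 4 arrays with Lys were all Mmp7-null, 6 with Trpn were all wild-type, and only the 6 with Phe held both genotypes. Wild-type scratched replicates 3 and 4 and Mmp7-null scratched replicate 1 stood apart. The upper quartile of linear signal was 115 on wild-type scratched 3 and 119 on Mmp7-null scratched 1, against 126 to 134 on the others. The gap between the 3′ and 5′ ends of the actin control was 2.62 on wild-type scratched 4, against 1.53 to 1.93. Results are also given without these 3 arrays.

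Of the 7 measured regulators, all 7 were higher in scratched Mmp7-null cultures than in scratched wild-type cultures, and 4 (Foxj1, Myb, Ccno and Deup1) were higher in uninjured Mmp7-null cultures. In those comparisons 3.29% and 2.3% of all 18193 genes were called higher. After scratching, Myb and Deup1 fell in wild-type cultures and Deup1 fell in Mmp7-null cultures, against 2.3% and 2.45% of all genes called lower. No overlap between genotypes was seen for 5 members uninjured (5.44% of all genes were higher in this way) and for all 7 scratched (4.19%). Scratched values lay below all uninjured ones for Myb and Deup1 in wild-type (5.82% of genes) and in Mmp7-null cultures (8.72%). No member's response to scratching differed between the genotypes past the threshold on its lead probe set. For that difference 0.132% of all genes were called in either direction. A call is an adjusted p under 0.05 (limma, Benjamini-Hochberg over all genes), and errors beside fold changes are standard errors. The plot of member levels gives every array.

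**Figure D1:**
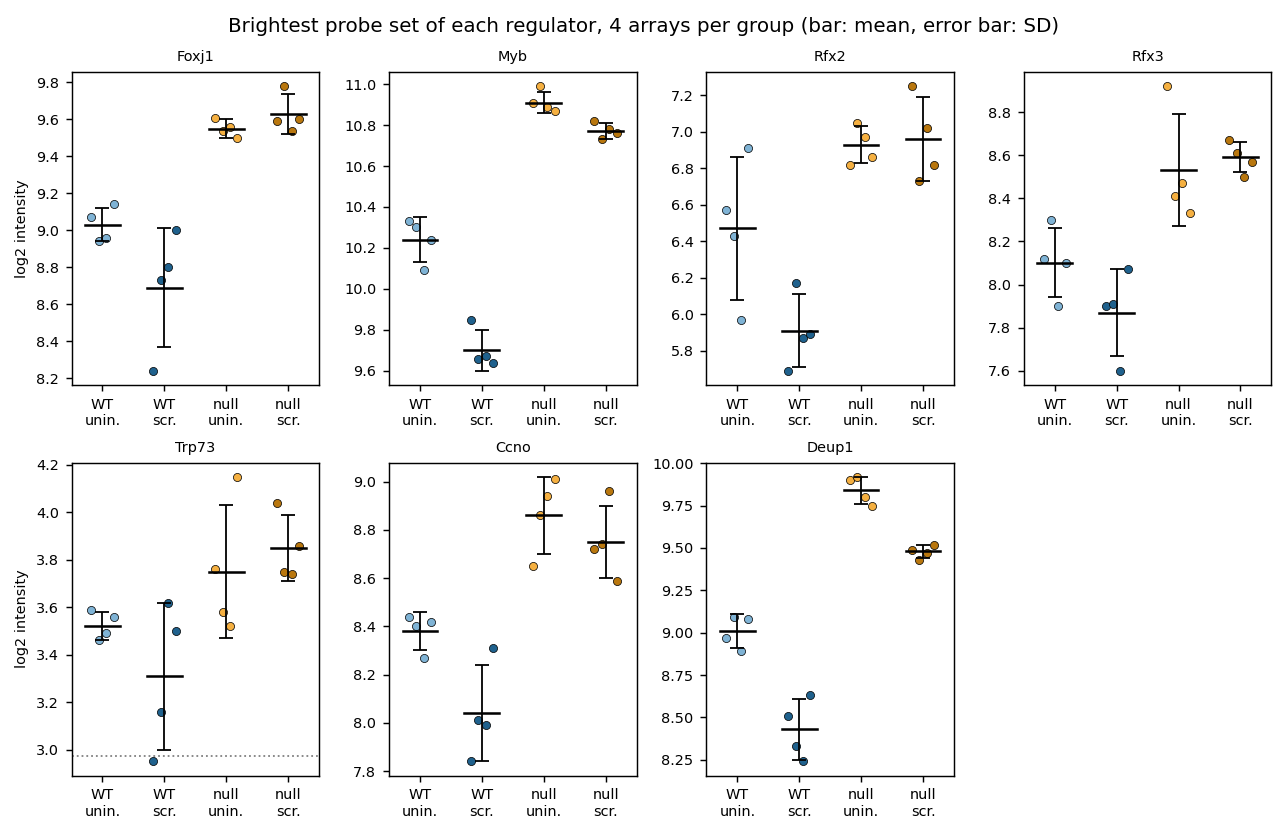
Log2 intensity of the lead probe set of each of the 7 measured regulators on each of 16 arrays (points), with the mean and SD of the 4 arrays in each group. For Foxj1, Myb, Rfx3, Ccno and Deup1 all 8 Mmp7-null arrays lie above all 8 wild-type arrays.

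Foxj1 encodes the forkhead factor that commands the motile cilium genes. Its level was 9.07, 8.94, 8.96 and 9.14 in the wild-type uninjured cultures and 8.24, 8.73, 8.80 and 9.00 in the wild-type scratched ones. In Mmp7-null cultures it was 9.61, 9.54, 9.56 and 9.50 without injury and 9.59, 9.78, 9.54 and 9.60 after scratching. Every Mmp7-null value was above every wild-type value, while within each genotype the scratched and uninjured cultures overlapped. Foxj1 was higher in Mmp7-null cultures by 0.52 ± 0.12 (adjusted p = 0.0228) uninjured and by 0.93 ± 0.12 (adjusted p = 5e-04) scratched. With scratching it differed by -0.34 ± 0.12 in wild-type (adjusted p = 0.154) and 0.08 ± 0.12 in Mmp7-null cultures (adjusted p = 0.788). In wild-type cultures that difference reached -0.54 (adjusted p = 0.0274) without the 3 doubtful arrays and -0.44 (adjusted p = 0.0407) without scratched replicate 4 alone. It was -0.18 (adjusted p = 0.216) without scratched replicate 1, the lowest of its group. By spike-in set it was -0.83 between the single Phe arrays and -0.17 between the 3 and 3 Trpn arrays. The call between uninjured genotypes was lost when any of 6 arrays was left out (Mmp7-null uninjured 1, 2 or 3 or wild-type uninjured 1, 2 or 3), at adjusted p up to 0.0745 and sizes from 0.50 to 0.54.

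Myb encodes a transcription factor used in cycling progenitors and, in the airway, early in the multiciliated program. Its lead probe set read 10.33, 10.30, 10.09 and 10.24 in wild-type uninjured and 9.85, 9.66, 9.67 and 9.64 in wild-type scratched cultures. The Mmp7-null cultures read 10.91, 10.99, 10.89 and 10.87 uninjured and 10.82, 10.73, 10.78 and 10.76 scratched. The 4 groups were stacked without overlap, with Mmp7-null uninjured at the top and wild-type scratched at the bottom. Scratching lowered Myb by 0.54 ± 0.06 in wild-type cultures (fold change 0.69, adjusted p = 5.38e-05). In Mmp7-null cultures the difference was -0.14 ± 0.06 (adjusted p = 0.193), and there the 4 scratched values were below the 4 uninjured ones. Mmp7-null cultures exceeded wild-type by 0.67 ± 0.06 uninjured (adjusted p = 4.21e-05) and by 1.07 ± 0.06 scratched (fold change 2.1, adjusted p = 5.73e-07). By p-value that scratched difference ranked 1 among the 18193 genes.

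The other 2 Myb probe sets gave the same directions. The probe set 1450194_a_at had means of 9.19 ± 0.06 and 8.51 ± 0.11 (SD, n = 4) in wild-type uninjured and scratched cultures, and 9.93 ± 0.09 and 9.76 ± 0.07 in the Mmp7-null ones. For 1422734_a_at the means were 8.08 ± 0.08, 7.27 ± 0.31, 8.87 ± 0.16 and 8.45 ± 0.13 in the same order. All 3 probe sets were called lower after scratching in wild-type cultures (-0.54, -0.68 and -0.81) and none in Mmp7-null cultures (-0.14, -0.17 and -0.42). Averaging the probe sets before the fit gave a called decrease in Mmp7-null cultures, -0.24 (adjusted p = 0.0414). The difference between the genotypes' responses was 0.40 ± 0.08 on the lead probe set (adjusted p = 0.088, 95% interval 0.23 to 0.56). On 1450194_a_at it was 0.51 and was called (adjusted p = 0.034 over all probe sets).

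**Figure D2:**
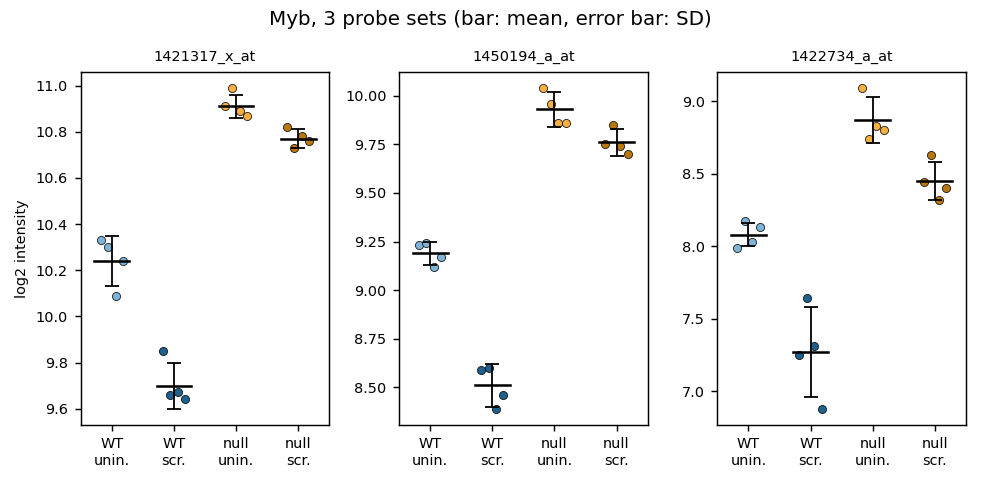
Log2 intensity of the 3 Myb probe sets on each of 16 arrays, by group, with group means. In all 3 the wild-type scratched cultures are lowest and the Mmp7-null uninjured cultures highest by mean.

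Rfx2 and Rfx3 encode winged-helix factors that bind the X-box of ciliary promoters. Rfx2 read 6.57, 6.43, 5.97 and 6.91 in wild-type uninjured, 5.69, 6.17, 5.87 and 5.89 in wild-type scratched, 6.82, 7.05, 6.97 and 6.86 in Mmp7-null uninjured and 7.25, 6.73, 7.02 and 6.82 in Mmp7-null scratched cultures. Wild-type uninjured values spread widely and reached into both neighbouring groups, and only the scratched genotypes stood apart. Rfx2 was higher in scratched Mmp7-null cultures by 1.05 ± 0.17 (adjusted p = 0.00202), and by 0.93 (adjusted p = 0.0485) without the 3 doubtful arrays. Its other differences were 0.46 ± 0.17 between uninjured genotypes (adjusted p = 0.169), -0.56 ± 0.17 for scratch in wild-type (adjusted p = 0.0805) and 0.03 ± 0.17 for scratch in Mmp7-null cultures (adjusted p = 0.934). Without wild-type uninjured replicate 3, the lowest of its group, the wild-type scratch difference was -0.73 (adjusted p = 0.0124), and the difference between uninjured genotypes was 0.29 (adjusted p = 0.403). The remaining 3 Rfx2 probe sets had group means from 1.99 to 2.23, below the background.

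Rfx3 read 8.12, 8.30, 7.90 and 8.10 in wild-type uninjured, 7.90, 7.91, 7.60 and 8.07 in wild-type scratched, 8.92, 8.41, 8.47 and 8.33 in Mmp7-null uninjured and 8.67, 8.61, 8.50 and 8.57 in Mmp7-null scratched cultures. The genotypes did not overlap in either state, whereas scratched and uninjured cultures did in both. Rfx3 was higher in scratched Mmp7-null cultures by 0.72 ± 0.13 (adjusted p = 0.00379), and by 0.65 (adjusted p = 0.0406) without the 3 doubtful arrays. Between uninjured genotypes the difference was 0.43 ± 0.13 and was not called (adjusted p = 0.0717). It was called under 5 of 28 alternative settings, among them without Mmp7-null uninjured replicate 4 (0.50, adjusted p = 0.0496). Scratching gave -0.23 ± 0.13 in wild-type (adjusted p = 0.403, and -0.14 without scratched replicate 3) and 0.05 ± 0.13 in Mmp7-null cultures (adjusted p = 0.845). Its other probe set lay below the background.

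Trp73 encodes p73, a p53 relative that acts upstream of Foxj1 and Myb in this lineage. Its probe set was dim, at 3.59, 3.46, 3.49 and 3.56 in wild-type uninjured, 2.95, 3.16, 3.62 and 3.50 in wild-type scratched, 3.76, 3.58, 3.52 and 4.15 in Mmp7-null uninjured and 4.04, 3.75, 3.74 and 3.86 in Mmp7-null scratched cultures. Of the 16 values, wild-type scratched replicate 1 alone lay below the background. The scratched Mmp7-null values all exceeded the scratched wild-type values, by 0.54 ± 0.15 in the mean, with an adjusted p of 0.0496. That call was lost under 20 of 28 alternatives, including 13 of the 16 that leave out 1 array, at adjusted p up to 0.185 and with the direction kept. No other Trp73 difference was called (0.23 between uninjured genotypes, -0.22 and 0.09 for scratching in wild-type and Mmp7-null cultures). Single arrays carried much of these: without Mmp7-null uninjured replicate 4 the first was 0.10, and the third 0.23, and without wild-type scratched replicate 1 the second was -0.10. A second Trp73 probe set was below the background.

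Ccno encodes cyclin O, which multiciliated cells need to amplify centrioles. It read 8.44, 8.40, 8.27 and 8.42 in wild-type uninjured, 7.84, 8.01, 7.99 and 8.31 in wild-type scratched, 8.65, 8.86, 8.94 and 9.01 in Mmp7-null uninjured and 8.72, 8.74, 8.96 and 8.59 in Mmp7-null scratched cultures. The genotypes were apart in both states, and only wild-type scratched replicate 4 among its group reached the uninjured wild-type range. Ccno was higher in Mmp7-null cultures by 0.48 ± 0.10 uninjured (adjusted p = 0.0165) and 0.72 ± 0.10 scratched (adjusted p = 0.00103). The uninjured call was lost without Mmp7-null uninjured 3 (adjusted p = 0.0509) or wild-type uninjured 3 (adjusted p = 0.0536). Scratching gave -0.35 ± 0.10 in wild-type cultures (adjusted p = 0.0766) and -0.11 ± 0.10 in Mmp7-null cultures (adjusted p = 0.715). The wild-type difference was called without wild-type scratched replicate 4 (-0.44, adjusted p = 0.0176) and without the 3 doubtful arrays (-0.46, adjusted p = 0.048).

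Deup1 encodes the scaffold of the deuterosome. It read 8.97, 9.09, 8.89 and 9.08 in wild-type uninjured, 8.51, 8.33, 8.24 and 8.63 in wild-type scratched, 9.90, 9.92, 9.80 and 9.75 in Mmp7-null uninjured and 9.49, 9.43, 9.47 and 9.52 in Mmp7-null scratched cultures. As for Myb, the 4 groups did not overlap, in the same order. Deup1 fell with scratching by 0.58 ± 0.08 in wild-type (adjusted p = 0.000376) and by 0.36 ± 0.08 in Mmp7-null cultures (adjusted p = 0.0138), and the responses differed by 0.21, with a 95% interval from -0.02 to 0.44. It was higher in Mmp7-null cultures by 0.83 ± 0.08 uninjured (fold change 1.78, adjusted p = 7.01e-05) and by 1.05 ± 0.08 scratched (fold change 2.07, adjusted p = 9.77e-06). Deup1 and Mmp7 are both on chromosome 9, with 36 protein-coding genes between them in RefSeq. In that annotation Ccno and Mcidas are neighbours on chromosome 13.

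**Figure D3:**
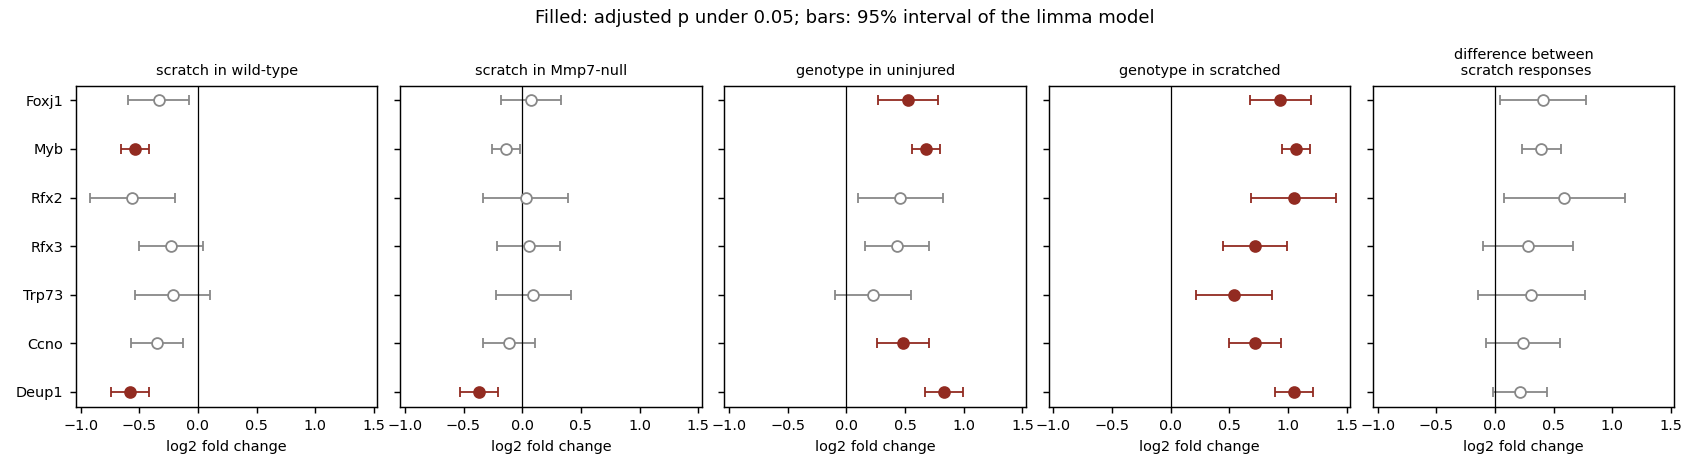
Log2 fold change of each measured regulator with its 95% interval in the scratch and genotype comparisons and for the difference between scratch responses (n = 4 arrays a group), filled where the adjusted p is under 0.05. All 7 intervals for scratched Mmp7-null against scratched wild-type cultures lie above 0, and for scratching in Mmp7-null cultures only those of Myb and Deup1 exclude 0.

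Over the 7 members, the median change with scratching was -0.35 in wild-type and 0.03 in Mmp7-null cultures, beside 0.01 and -0.02 over all genes. Their median genotype difference was 0.48 uninjured and 0.93 scratched, beside -0.01 and -0.04. Myb and Deup1 were called lower in wild-type cultures and Foxj1 was not, which does not show that they differ from Foxj1. The changes of the 5 members other than Trp73, which was left out of this step, were set against that of Foxj1 in 20 exact two-sided permutation tests. At least 12 of the 20 would have to reach the smallest p for any to pass adjustment, so the absence of a pass says little. The smallest p that 4 against 4 arrays can give, 0.0286, was reached by Deup1 minus Foxj1 for scratching in Mmp7-null cultures (-0.44) and for genotype in uninjured cultures (0.31), and by Myb minus Foxj1 for scratching in Mmp7-null cultures (-0.22). Each has an adjusted p of 0.19.

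The genotype differences were set against the spike-in sets, since only the Phe arrays hold both genotypes. Within those arrays, with 2 Mmp7-null arrays and 1 wild-type array per state, all 7 differences were above 0, with no test. Uninjured, they were 0.46 for Foxj1, 0.55 for Myb, 0.53 for Ccno and 0.80 for Deup1, with 0.35, 0.28 and 0.24 for Rfx2, Rfx3 and Trp73. Scratched, they were 1.42, 0.91, 1.01 and 0.94 for the first 4, with 1.19, 0.65 and 0.79 for the other 3. The single wild-type scratched Phe array, replicate 1, was the lowest of its group for Foxj1 (8.24), Rfx2 (5.69), Trp73 (2.95) and Ccno (7.84). It was the highest for Myb (9.85), and neither for Rfx3 (7.90) and Deup1 (8.51). The scratched differences within the Phe arrays all rest on that array. A model with the set as a block links the genotypes through the Phe arrays of both states, and takes the scratch differences from all arrays. Its uninjured and scratched values therefore both lean in part on wild-type scratched replicate 1, and can differ from those within the Phe arrays. With the set as a block in the model, 2 members kept their call between uninjured genotypes (Myb 0.53, adjusted p = 0.00648, and Deup1 0.76, adjusted p = 0.0191), where 0.181% of all genes were called higher. Foxj1 (0.73, adjusted p = 0.0699) and Ccno (0.65, adjusted p = 0.0565) lost it. Between scratched genotypes Foxj1, Myb, Ccno and Deup1 kept their call, where 0.841% of all genes were called higher, and Rfx2 (1.06, adjusted p = 0.0682), Rfx3 (0.61, adjusted p = 0.138) and Trp73 (0.67, adjusted p = 0.185) lost it. Over all 16 arrays without the block, 5 members had every one of 8 Mmp7-null arrays above every one of 8 wild-type arrays, as did 1.43% of all genes. The part of the sets in the genotype differences was not tested beyond these values.

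The wider pathway was followed through lists chosen by function. Of all genes, 2.5% were called lower in uninjured and 2.92% in scratched Mmp7-null cultures, and scratching raised 2.55% in wild-type and 2.27% in Mmp7-null cultures. Of 45 measured axoneme genes, 38 rose in scratched Mmp7-null against scratched wild-type cultures, none fell, and the median difference was 0.76. Among them were Dnaic1 (1.11), an outer dynein arm chain, Rsph4a (0.99), a radial spoke head protein, Lrrc23 (1.01) and Stk36 (0.98), a kinase needed for the central pair. In uninjured cultures 27 of 45 rose and none fell (median 0.60), with Lrrc23 0.95, Armc4 0.92, Meig1 0.92 and Ccdc39 0.84. With the spike-in block 20 and 4 of the 45 were called. The mean log2 level of the list per array ran from 7.61 to 7.97 in wild-type scratched and from 8.30 to 8.57 in Mmp7-null scratched cultures, without overlap. Scratching changed few of these genes: in wild-type cultures 1 fell (Rsph4a, -0.47), and in Mmp7-null cultures 2 rose (Dnah9 0.62 and Hydin 0.53). Without the 3 doubtful arrays Rsph4a was not called, Ccdc40 (-0.35) and Zmynd10 (-0.36) fell in wild-type cultures, and Spef2 (0.55) and Cdhr4 (0.41) rose beside Dnah9 and Hydin in Mmp7-null cultures.

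Of 25 centriole assembly genes, which cycling cells use too, 13 rose in uninjured and 13 in scratched Mmp7-null cultures, and none fell (medians 0.38 and 0.37). Plk4, the kinase that starts centriole duplication, differed by 0.71 and 0.83, and Cep152, its recruiting scaffold, by 0.71 and 1.09. Stil (0.74) and Ccp110 (0.70) were among the largest called uninjured, and Ccp110 (0.76) and Cep295 (0.75) scratched. In wild-type cultures Cep152 (-0.55) and Cetn3 (-0.30) fell with scratching, and none of the 25 was called in Mmp7-null cultures. With the spike-in block Cep152 kept its call and Cetn3 lost it, and Poc5 was called lower in Mmp7-null cultures (-0.28). With that block the genotype calls were 1 of 25 uninjured and 5 of 25 scratched. Of 19 basal body genes, 5 rose uninjured (Cep128 0.86, Ccna1 0.76, Cep83 0.61 and Cetn4 0.61 the largest) and 7 scratched (Cetn4 0.90, Cep41 0.85, Ccna1 0.73 and Cep128 0.66), and none was called after scratching in either genotype. With the block 2 and 3 basal body genes were called, and without the 3 doubtful arrays 8 uninjured and 5 scratched. Without those arrays 634 of all genes were called higher uninjured and 504 scratched, against 418 and 599 with all arrays. Cdc20b, which sits next to Mcidas on the side away from Ccno, was below the background in every group.

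The partner list held partners and antagonists of GMNC and multicilin. It also held other RFX and forkhead factors linked to ciliogenesis, with Mybl1 and Mybl2. None of its 14 genes was called in any comparison, and 11 of them had a mean above the background. The 11 included the multicilin partners E2f5 and Tfdp1 and the antagonist Gmnn. E2f4, with group means from 1.77 to 1.81, was below the background, so its state is not known from these arrays. Without the 3 doubtful arrays Rfx7, an RFX factor of this list, was called higher after scratching in wild-type cultures (0.39, adjusted p = 0.0396). Of 16 Notch genes, Notch1 (-0.58) and its target Hes1 (-0.39) were lower in uninjured Mmp7-null cultures, and Hey1 (0.73) and the ligand Jag1 (0.36) higher in scratched ones. Scratching in wild-type cultures lowered Hes1 (-0.52) and Notch1 (-0.34) and raised Hey1 (0.77), and in Mmp7-null cultures it raised Hey1 (1.22). With the spike-in block Notch1 uninjured (-0.54) and Hey1 scratched (1.00) kept their genotype calls, and Hes1 and Jag1 lost theirs. Without the 3 doubtful arrays the only Notch gene called between scratched genotypes was Lfng (0.40), and Hey1 was not called after scratching in wild-type cultures. Mitotic genes rose with scratching in both genotypes, 17 of 21 in wild-type (median 1.09, Cenpa 2.37, Ube2c 2.14, Ccnb2 2.03) and 12 of 21 in Mmp7-null cultures (median 0.53). Between genotypes, 6 of the 21 were higher in uninjured Mmp7-null cultures (Aurka 0.81, Cdk1 0.53). In scratched ones 1 was higher (Nek2, 0.38) and 3 lower (Ube2c -0.59, Ccnb2 -0.49, Birc5 -0.44), and none of the 21 was called in either state with the spike-in block. Without the 3 doubtful arrays only Ube2c (-0.59) and Birc5 (-0.54) of the 21 were called between scratched genotypes, both lower. No gene of the member, partner, centriole, basal body, axoneme, Notch or mitotic lists was called for the difference between scratch responses. Without the 3 doubtful arrays Notch1 (0.67, adjusted p = 0.0417) and the mitotic kinase gene Cdk1 (-0.52, adjusted p = 0.0457) were called for it. In that setting 50 of all genes were called for the difference in either direction, against 24 with all arrays.

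**Figure D4:**
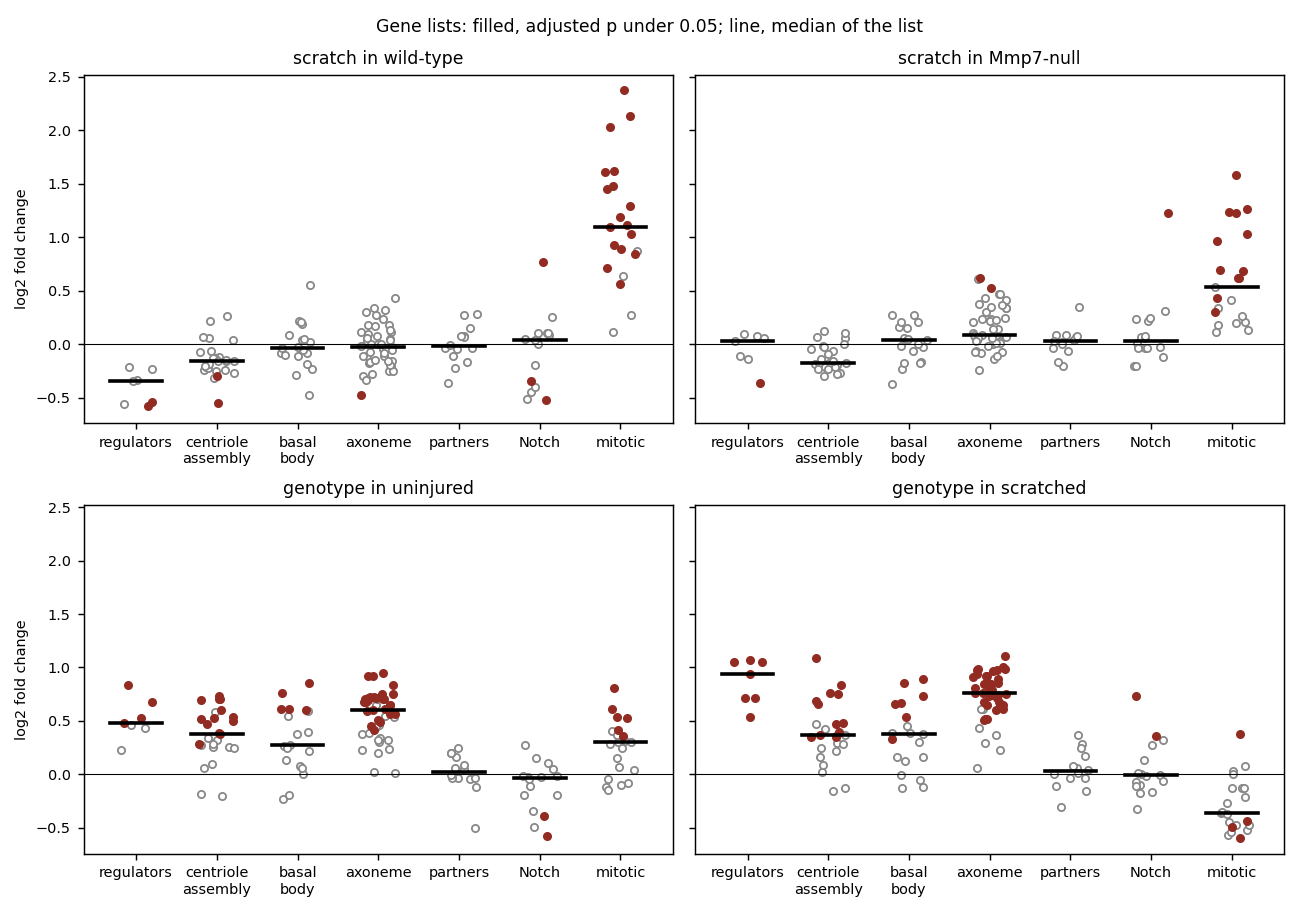
Log2 fold changes of the measured genes of the functional lists in the scratch and genotype comparisons, with each list's median. The axoneme and centriole lists shift upward in the Mmp7-null minus wild-type comparisons (axoneme medians 0.60 and 0.76), and the mitotic list after scratching (1.09 and 0.53).

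Markers of other cells also changed, with scratching and with genotype. In wild-type cultures, where Myb and Deup1 fell with scratching, the basal cell markers Krt5 (-0.80), Trp63 (-0.48) and Itgb4 (-0.55) fell and Krt17 (0.71) rose, 4 of 12. The goblet cell genes Muc5b (3.26) and Agr2 (2.54) rose there, 2 of 9, as did Krt8 (0.51) and Krt18 (0.60), 2 of 8 general epithelial genes. Of 8 club cell genes Aldh1a7 (0.55) rose, and of 9 alveolar genes Sftpd (0.31). Cd68 (1.03) rose among 9 leukocyte genes and Cftr (1.08) among 7 neuroendocrine, tuft and ionocyte genes. Dcn (1.58) and Acta2 (1.07) rose among 11 mesenchymal genes. No gene of these lists was called lower, but the median was -0.24 for the alveolar and -0.004 for the club cell list. In 3 of the 9 alveolar genes the scratched values lay below all uninjured ones. With scratching in Mmp7-null cultures Krt5 (-0.45) and Krt15 (-0.45) fell. Higher there were Krt17 (0.93) of 12 basal cell genes and Muc5b (2.64) and Agr2 (1.44) of 9 goblet cell genes. Krt8 (0.41), Krt18 (0.38) and Cldn4 (0.59) of 8 general epithelial genes were higher too. So were Hp (0.54) of 8 club cell, Sftpd (0.34) of 9 alveolar and Dcn (1.23) of 11 mesenchymal genes. The median was 0.17 for the club cell and -0.04 for the alveolar list. The responses differed for Agr2 (-1.10, adjusted p = 0.0434) and Cd68 (-1.12, adjusted p = 0.0434), both smaller in Mmp7-null cultures.

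By genotype, club cell markers were called for genotype in 0 of 8 genes uninjured and 1 of 8 scratched, and goblet cell markers in 0 and 1 of 9. Basal cell markers gave 1 called of 12 uninjured and 3 scratched, and general epithelial markers 1 and 0 of 8. Alveolar markers gave 4 of 9 in each state: Ager, Cldn18 and Hopx were lower (-2.29, -2.46 and -0.34 uninjured) and Sftpc higher (1.5 uninjured). The alveolar list's mean log2 level was 6.86 to 7.01 in wild-type and 6.36 to 6.44 in Mmp7-null uninjured cultures, without overlap. Of 9 leukocyte markers, 4 were above the background (Lyz2, Cd68, Csf1r and Laptm5) and 5 were not, the pan-leukocyte marker Ptprc (group means 2.34 to 2.38) among them. By genotype 1 was called, Cd68, lower in scratched Mmp7-null cultures (-0.92). Among 11 mesenchymal genes, Dcn (1.00) and Acta2 (1.37) were higher in uninjured Mmp7-null cultures. Between scratched genotypes 1 of the 11 was called higher and none lower. There the mean of Acta2 was 7.27 in wild-type and 8.37 in Mmp7-null cultures, and that of Dcn 5.98 and 6.63. Of 7 neuroendocrine, tuft and ionocyte markers only Trpm5 and Cftr were above the background, and neither was called for genotype. These marker calls come from the model without the spike-in block. The part of cell makeup in the members' differences was not tested.

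The genes whose profile over the 16 arrays lay nearest to Foxj1, by the root mean square difference of log2 values after subtraction of each gene's mean, were Lrrc46 (0.126), 2610028H24Rik (0.130), Dynlrb2 (0.143), 1110017D15Rik (0.145) and Zmynd10 (0.147), out of 11654 ranked. Dynlrb2 is a dynein light chain and Zmynd10 a dynein assembly factor. The profile of Foxj1 itself departed from its mean by 0.414. Other members ranked 25 (Ccno), 98 (Rfx3), 141 (Myb), 172 (Rfx2), 205 (Trp73) and 278 (Deup1). For Deup1, whose own departure was 0.538, the nearest gene was Myb (0.128), followed by the centriole genes Mdm1 (0.160), Plk4 (0.166) and Cep152 (0.168) and by 1700094D03Rik (0.175). Foxj1 ranked 44 in that list. These distances describe 16 arrays that share group differences, and no test was made of them. For reference, Lrrc46 was lower after scratching in wild-type cultures by 0.33 (adjusted p = 0.0413) and Mdm1 by 0.44 (adjusted p = 0.00876), and Mdm1 also fell in Mmp7-null cultures (-0.47, adjusted p = 0.00757).

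**Figure D5:**
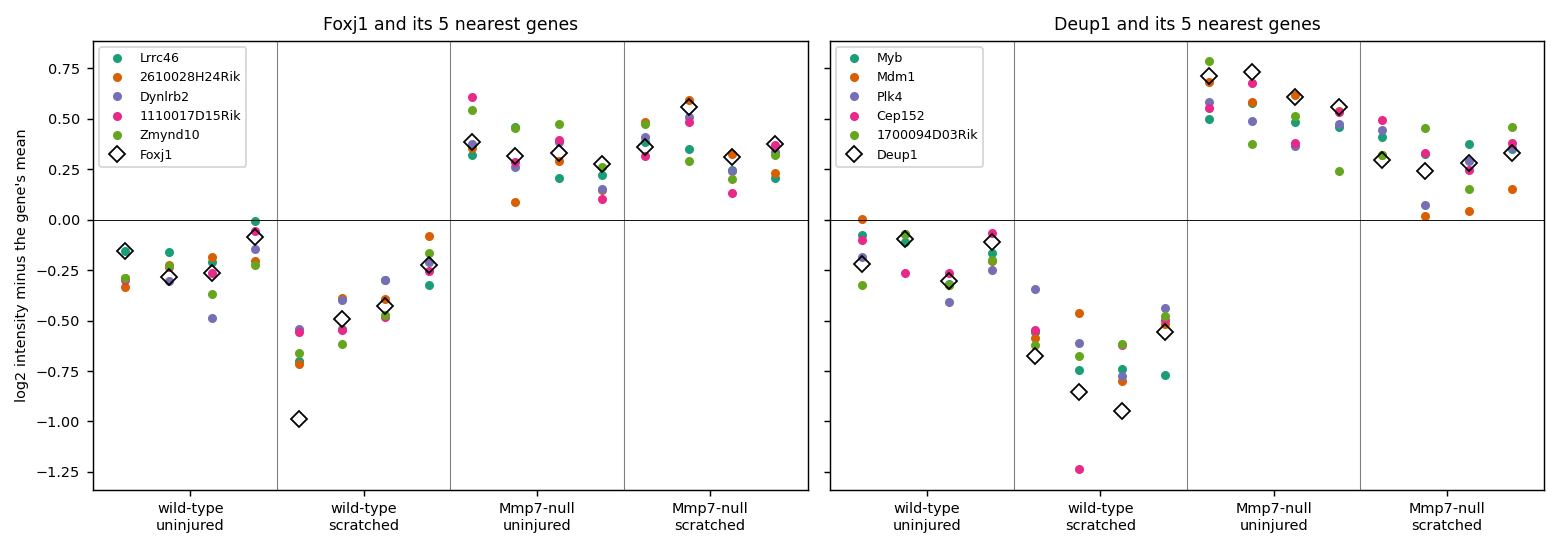
Centred log2 profiles over 16 arrays of Foxj1 and Deup1 with the 5 genes nearest to each, arrays ordered by group. Both sets are highest in the Mmp7-null arrays, and lowest by mean in the wild-type scratched arrays.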

How the data were processed

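Per the labels, total RNA of 16 cultures was hybridised to Affymetrix arrays, and per the submitters' processing notes the deposited values came from RMA, whose version is not given in the sources used here. The values the authors deposited are intensities on a linear scale. The labels name the 430A 2.0 array, whereas the 45101 probe sets and their annotation are those of the larger 430 2.0 array. Intensities were turned to log2 with no pseudocount, filter or further normalization. For each of 18193 genes the brightest probe set by overall mean was taken, among those annotated to 1 symbol. Tests used limma 3.58.1 in R 4.3.3 with a mean per group (12 residual degrees of freedom), two-sided, adjusted over all genes. Other member probe sets were adjusted over all probe sets. Named genes are every member, up to 4 largest called genes per list and comparison (some are left out of the text), and the 5 nearest to Foxj1 and to Deup1. The genes of the partner list, Cdc20b, the cell type markers and genes called only under an alternative were named outside that rule, after their values were seen. The promoter windows were searched on both strands. The fits were tested on simulated data. The members, lists and alternatives, the spike-in sets and doubtful arrays among them, were chosen with earlier results of these data known.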

Additional observations from a re-analysis of the deposited data

Results flagged for a closer look

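In a group of 4 arrays a value was picked out where its gap to the nearest other value exceeded 0.829 of the group's range. Of 56 groups (14 member probe sets in 4 groups), 9 had such a value, and chance picks out about 1 in 20. In 8 of the 9 the probe set's mean was below the background. The exception was the lead Myb probe set, at 9.85 in wild-type scratched replicate 1 against 9.64 to 9.67 in the other 3. That array is also the only wild-type scratched array with the Phe control. For Rfx2, 1442578_at stood at 2.41 in wild-type uninjured 4 and 2.27 in Mmp7-null scratched 1, 1433415_at at 2.14 in wild-type scratched 3, and 1433416_at at 2.05 in wild-type scratched 3 and 1.97 in Mmp7-null scratched 3. For Rfx3, 1425413_at stood at 2.46 in wild-type uninjured 4, 3.04 in Mmp7-null uninjured 4 and 2.87 in Mmp7-null scratched 3.

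The Myb probe set 1450194_a_at had a scratch response that differed between the genotypes by 0.51 (Mmp7-null minus wild-type, limma, adjusted p = 0.034), while the lead Myb probe set gave 0.40 (adjusted p = 0.088).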

How the results depend on the processing

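Of 973 member fold changes recomputed under alternatives, 917 kept their direction and side of the threshold, 32 lost a call, 17 gained one and 7 changed sign. Members called lower after scratching in wild-type cultures numbered 2, but 4 with array weights, 4 without the 3 doubtful arrays and 2 to 4 when each array was left out in turn (4 without wild-type scratched 4). Of all 18193 genes, 419 were called lower there, 683 with array weights, 440 without the 3 doubtful arrays and 497 without wild-type scratched 4. Members called lower in Mmp7-null cultures numbered 1, 2 with the mean of all probe sets and 1 to 1 with arrays left out. Over all genes 446 were called lower there, and 409 with that mean. Members called higher in uninjured Mmp7-null cultures numbered 4, 2 with the spike-in block and 2 to 5 with arrays left out (2 without Mmp7-null uninjured 3 or wild-type uninjured 3). All genes called higher there numbered 418, 33 with the block, 286 without Mmp7-null uninjured 3 and 263 without wild-type uninjured 3. In scratched Mmp7-null cultures the members called higher numbered 7, 4 with the block and 6 to 7 with arrays left out. There 599 of all genes were called higher, and 153 with the block. For the difference between scratch responses the members called higher numbered 0, although Foxj1, Myb and Rfx2 had an unadjusted p under 0.05. They numbered 1 with the spike-in block and 0 to 1 with arrays left out, the gene being Myb. With that block 18 of all genes were called for it in either direction, and 24 without the block. Counts in the opposite directions stayed at 0 to 0. The changes of sign were all uncalled scratch differences in Mmp7-null cultures: Rfx2 at -0.048 with array weights, -0.067 without the doubtful arrays, -0.0043 without Mmp7-null uninjured 1 and -0.067 without Mmp7-null scratched 1, Rfx3 at -0.000397 with the mean of all probe sets and -0.012 without Mmp7-null uninjured 4, and Trp73 at -0.035 with array weights. With arrays left out in turn the range was -0.067 to 0.105 for Rfx2 and -0.012 to 0.183 for Rfx3. The cause of these shifts was not tested.

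Over 24 same-numbered pairs the deviations correlated from -0.22 to 0.31 (median -0.05). Pairs that join the genotypes cannot share an animal, and those within a genotype ran from -0.14 to 0.31. With so few pairs, whether the replicate numbers pair the cultures cannot be told. With the replicate number as a block, the member counts were 2, 1, 4, 6 and 0 in the same order, since Trp73 lost its call (0.54, adjusted p = 0.0583). With that block 359, 379, 372, 537 and 4 of all genes were called in the same directions. The number of arrays, and for Trp73 a signal near the background, limit the precision.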
